A study of Mus musculus with 2 samples.

Results

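Mir191 and Mir425 are a pair of neighbouring microRNA (miRNA) genes of mouse chromosome 9, usually named together with the protein-coding gene Dalrd3. They were taken from the deposited tables by their symbols in the GENCODE M21 annotation, which gave 2 of 2202 listed miRNA genes. The tables hold small RNA reads (microRNA-seq of total RNA) from left cerebral cortex tissue of male mice aged 10 days, of the B6CASTF1/J strain, an F1 hybrid of B6 and CAST. There was 1 group of 2 biological replicates, with 1 library each, and no treatment, other tissue or other age. The replicates carry the numbers of separate males under a single strain-level donor entry.

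A miRNA gene is transcribed as part of a longer RNA, from which a hairpin is cut out and trimmed to short mature strands, called arms. An arm guides Argonaute proteins to messenger RNAs, mainly through its seed, bases 2 to 8 from the 5′ end. miR-191 and miR-425 are found in many tissues, brain included, and miR-191 is often chosen as the reference against which other miRNAs are scaled in PCR work. Dalrd3 encodes a protein that takes part in the methylation of arginine tRNAs.

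The mature arms and hairpins of both genes were found in the RefSeq table (build GRCm38.p6). The mature arms are shown because the seed, in capitals, defines which miRNAs can share targets, and miR-489-3p is added because it holds the same seed as miR-425-5p.
miR-191-5p: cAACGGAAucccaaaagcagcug
miR-191-3p: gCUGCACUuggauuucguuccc
miR-425-5p: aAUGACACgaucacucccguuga
miR-425-3p: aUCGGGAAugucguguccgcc
miR-489-3p: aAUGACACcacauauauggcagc

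The 4 arms of the pair had 4 different seeds, and no other mature mouse miRNA of the table shared the seed of miR-191-5p, miR-191-3p or miR-425-3p. The seed of miR-425-5p was shared by 1 other mature miRNA, miR-489-3p, whose gene Mir489 lies on chromosome 6. The first 8 bases of miR-425-5p and miR-489-3p were identical, and 12 of 23 positions matched over their whole length. Mir489 had 0 reads in both libraries, which allows up to 1.12 CPM in replicate 1 and 1.71 CPM in replicate 2 (the level of 3 reads, counting error only). CPM here are reads on the strand of the gene per 1000000 such reads over all listed genes. Of the 2 genes with this seed, Mir425 was the one with reads in these libraries.

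The hairpins are shown because each deposited value is a sum over a hairpin. Their arms are in capitals, and everything between and beside them is in lower case.
Mir191: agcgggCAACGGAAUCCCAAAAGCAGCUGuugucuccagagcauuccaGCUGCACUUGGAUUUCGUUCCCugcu
Mir425: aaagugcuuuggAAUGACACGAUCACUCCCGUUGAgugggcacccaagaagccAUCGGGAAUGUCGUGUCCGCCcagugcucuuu

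The 2 hairpins were alike in composition and unlike in sequence. Mir191 is 74 bases long with 54.1% G and C, and Mir425 is 85 bases long with 54.1%, against a median of 52.1% over the 442 detected hairpins (2 CPM or more in both libraries). The lowest folding energy computed by RNAfold was -35.0 kcal/mol for Mir191 and -31.7 kcal/mol for Mir425, against a median of -35.2 kcal/mol. In that fold 19 of 23 bases of miR-191-5p were paired, and 14 of 23 of miR-425-5p. A global alignment placed 47 identical bases in 89 columns (52.8%), and the longest stretch in common was 5 bases. Neither hairpin shared 20 bases with a hairpin elsewhere, as 355 of the 442 detected ones did not. Neither has a near-identical copy among the listed hairpins, with which it would have to share reads. Reads of the arms are not separated in the tables, so every level below is the sum of both.

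The annotation placed the pair beside Dalrd3 and not within it. In M21 (mm10), Mir191 (ENSMUSG00000105497.1) lies on chromosome 9 from 108568319 to 108568392 and Mir425 (ENSMUSG00000065579.1) from 108568777 to 108568861, both on the plus strand and 384 bases apart. Both lie in the exon of transcript 4833445I07Rik-201, a long noncoding RNA from 108567533 to 108569174 on the same strand. In the shorter transcript 4833445I07Rik-202, Mir191 lies in the intron between 2 exons, and Mir425 starts after the transcript's end, with 2 bases between them. The M21 model of Dalrd3 starts at 108569886, with 1024 bases between Mir425 and it. In RefSeq the Dalrd3 gene runs from 108567484 to 108572773 and so spans both hairpins. The name of the host thus depends on the annotation. A further miRNA gene, Gm24083, is annotated on the minus strand from 108568295 to 108568414. It covers the whole of Mir191, extending 24 bases beyond its start and 22 beyond its end.

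**Figure D1:**
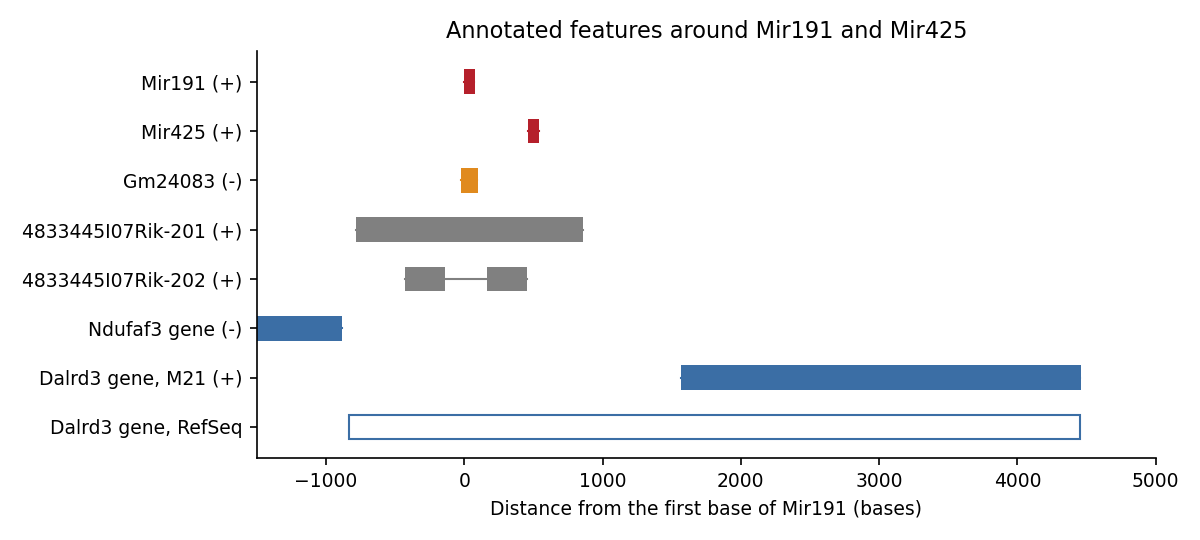
Annotated features around the pair, plotted by distance in bases from the first base of Mir191, with strand in brackets. Filled boxes are genes or exons of GENCODE M21 and the open box is the Dalrd3 gene of RefSeq. Gm24083 covers Mir191, and the M21 model of Dalrd3 starts downstream of Mir425.

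Whether Mir191 had reads at all depended on how strand was treated. Each deposited file has a count on the strand of the gene, a count on the opposite strand and a count that ignores strand. Mir191 had 25604 reads on its own strand in replicate 1 and 15402 in replicate 2, and 0 reads on the opposite strand in both. With strand ignored, it had 0 reads in both libraries. Gm24083 had 0 reads on its own strand, and the 25604 and 15402 reads stood in its count of opposite-strand reads. Mir425, which no listed miRNA gene overlaps, had 2175 and 1580 reads on its own strand, 1 and 0 on the opposite strand, and 2176 and 1580 with strand ignored. A table read without strand would thus show Mir425 and no Mir191.

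**Figure D2:**
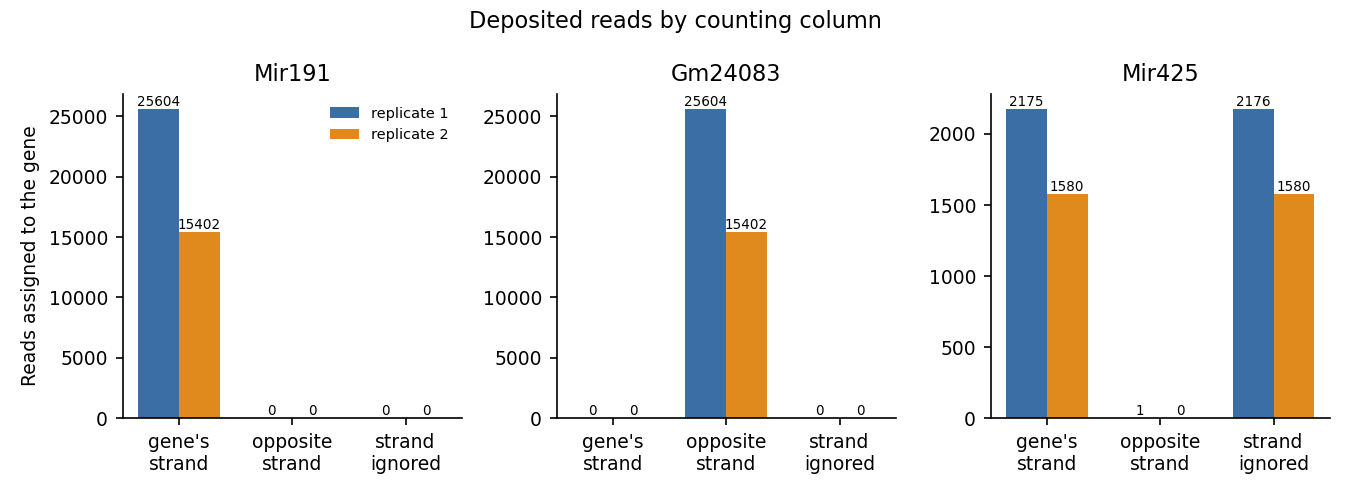
Reads assigned to Mir191, Gm24083 and Mir425 in each library, counted on the gene's strand, on the opposite strand and with strand ignored. The vertical axes are linear, start at 0 and differ between genes. The 25604 and 15402 reads of Mir191 are 0 when strand is ignored, and Mir425 keeps its reads.

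The loss at Mir191 was shared by every detected gene with a partner on the opposite strand. Of 64 listed miRNA genes that overlap another on the opposite strand, 28 were detected. All 28 had at least 90% fewer reads with strand ignored, and 25 of them had 0. No other detected gene lost as large a share. Mir191 lost the third most reads of all genes, after Mirlet7e (68203 and 42913 reads) and Mir126a (25767 and 19487), named after their values were seen. Reads marked ambiguous in the count without strand numbered 180955 and 108944, and the reads of Mir191 came to 14.1% of that number in each library. The count on the gene's strand is used throughout.

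Mir191 was among the most abundant miRNA genes by counted reads. Reads mapped to more than 1 place are not counted, so genes with copies elsewhere could rank too low, here and below. It stood at 9561 CPM in replicate 1 (exact 95% binomial interval 9445 to 9678, counting error only) and 8801 CPM in replicate 2 (8663 to 8940). Replicate 1 was the higher, and the mean was 9181 ± 538 CPM (SD, n = 2). This was 0.956% and 0.880% of the assigned reads. Mir191 held rank 25 of 2202 genes in replicate 1 and rank 24 in replicate 2, and its mean was 103 times the median of detected genes (89.4 CPM).

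In the order of means, Mir191 fell just behind Mir126a, Mir23b and Mir137. Mir137, a miRNA abundant in neurons, averaged 9938 ± 2644 CPM and Mir23b 10100 ± 3538 CPM, and the libraries of both spread across the values of Mir191. Mir126a, the endothelial miRNA gene, had 9622 and 11137 CPM, and both values lay above those of Mir191. Below it, Mir411, Mir151 and Mir330 averaged 7673 ± 533, 7417 ± 82.3 and 7175 ± 744 CPM, and no library of these 3 reached a value of Mir191. The level of Mir191 was thus not separated from Mir23b and Mir137 beyond the spread of the libraries.

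Mir425 had fewer reads but still stood above most detected genes. It stood at 812 CPM in replicate 1 (778 to 847) and 903 CPM in replicate 2 (859 to 948). Here replicate 2 was the higher, with a mean of 858 ± 64.1 CPM (SD, n = 2), 9.59 times the median of detected genes. Mir425 held rank 117 in both libraries and rank 115 by the mean. Mir412 (880 ± 60.8 CPM) and Mir15b (871 ± 336 CPM) stood just above it and Mir92-1 (854 ± 263 CPM) and Mir467d (851 ± 120 CPM) just below. The range of each of these overlapped that of Mir425, so its place among them was not resolved.

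**Figure D3:**
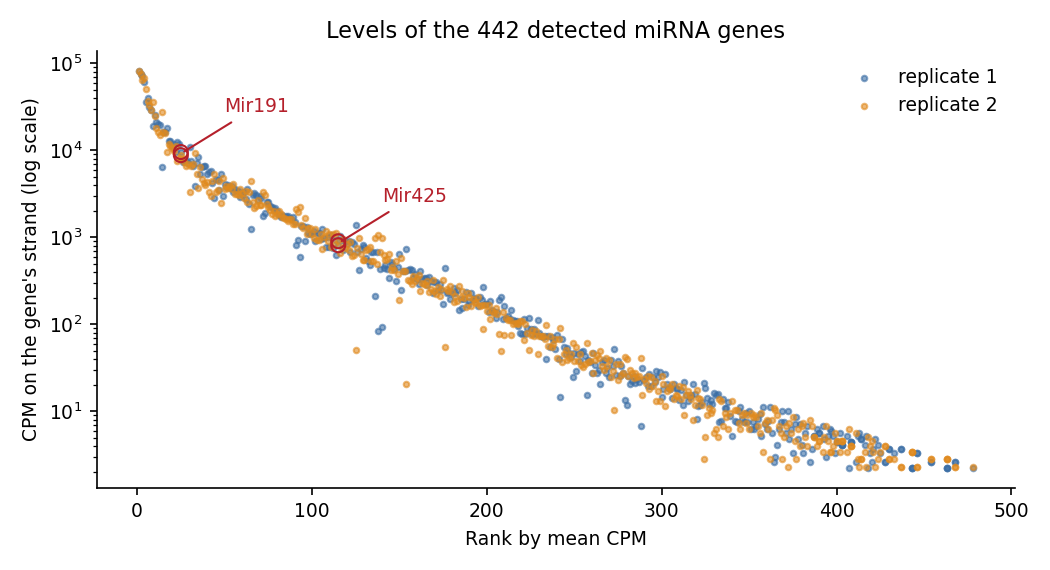
CPM of the 442 detected miRNA genes on a log scale, by rank of the mean, with 1 point per library. Mir191, at 9561 and 8801 CPM, and Mir425, at 812 and 903 CPM, are ringed, and their 2 points lie close together.

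Neither gene differed by as much as 2-fold between the libraries. The log2 ratio of replicate 2 over replicate 1 was -0.12 for Mir191 (95% counting interval -0.15 to -0.09) and 0.15 for Mir425 (0.06 to 0.25). By Fisher's exact test (two-sided) of each gene's reads against the remaining reads, the Benjamini-Hochberg adjusted p over 542 tested genes was 1.55e-15 for Mir191. It was 0.00400 for Mir425 by the same exact test. Both differences thus exceeded the counting error of reads taken as independent, as did those of 42.3% of tested genes at an adjusted p under 0.05. When the size of the log2 ratio also had to reach 1, 12.0% of tested genes were called, and neither Mir191 nor Mir425 was. The test compares 2 libraries and not conditions.

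Against other genes, both ratios were small. Of the 542 tested genes, 83 had a smaller log2 ratio in size than Mir191 (15.3%) and 112 a smaller one than Mir425 (20.7%), and the median size was 0.46, or 0.35 over the 442 detected genes. Among the 20 genes nearest Mir191 in mean CPM (5553 to 13876 CPM), the median size of the log2 ratio was 0.23, 5 were closer to 0 than Mir191, and 3 were called. Among the 20 nearest Mir425 (718 to 989 CPM), the median was 0.43, 4 were closer to 0, and 1 was called. Both genes thus differed less between the libraries than most genes of like level.

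The genes closest to each of the pair in level and in ratio shared no 20 bases with a hairpin elsewhere. The same held for 355 of the 442 detected hairpins, so this does not set them apart. Closeness was the difference of log2 ratios among the 20 nearest in mean CPM, over these 2 libraries only. For Mir191 they were Mir30d (log2 ratio -0.10), Mir324 (-0.07) and Mir125a (-0.18). For Mir425 they were Mir877 (0.18), Mir1249 (0.04) and Mir20a (0.01).

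The libraries themselves differed in ways that stand beside these values. Replicate 1 held 9089257 reads, of which 2677910 (29.5%) were assigned, and replicate 2 held 7432614, of which 1750076 (23.5%) were. Unmapped reads were 25.5% and 42.4%. The summed level of the 3 red cell marker genes was 814 CPM in replicate 1 and 56.6 CPM in replicate 2, with 3 of 3 detected. Most of it was Mir451a (737 and 20.6 CPM, called). Mir144 had 52.3 and 10.3 CPM (called), and Mir486 did not fall, with 25.4 and 25.7 CPM. The 10 neuronal marker genes, detected or not, summed to 39774 and 30206 CPM, with 8 lower and 2 higher in replicate 2. Mir132 went against that sum, from 3886 to 9221 CPM (log2 ratio 1.25, called), and without it the sums were 35888 and 20985 CPM. The other called neuronal gene, Mir9-3, had 161 and 76.0 CPM (log2 ratio -1.08). The 3 endothelial and mural genes summed to 13639 and 15214 CPM, and none was called. Most of that difference was Mir126a, with 9622 and 11137 CPM (log2 ratio 0.21). Mir143 (3821 and 3872 CPM, log2 ratio 0.02) and Mir145a (195 and 205 CPM, 0.07) hardly differed. The 3 oligodendrocyte genes, 2 higher and 1 lower in replicate 2, summed to 834 and 1423 CPM. The 3 leukocyte and microglia genes, 1 higher and 2 lower, summed to 950 and 723 CPM, and none was called. The part of these differences in the small ones of Mir191 and Mir425 was not tested. Of the neuronal genes, which check the labelled tissue, 6 of 10 were detected, led by Mir128-1 at 18242 and 9510 CPM. The liver gene Mir122 stood at 55.6 and 45.1 CPM, and of 5 muscle genes 4 had 0 reads. Other copies of several of these genes share sequence, so those counts are lower limits. A count of 0 for a muscle gene with such a copy does not show that its miRNA was absent. In bulk RNA, fewer cells of a type cannot be told apart from less RNA per cell.

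The reads of Mir191 exceeded those of Mir425 by about an order of magnitude in both libraries. How a ratio of reads between different miRNAs stands to a ratio of molecules was not tested, for this pair or for other genes. The ratio of their reads, which does not depend on the library total, was 11.8 in replicate 1 (exact 95% interval 11.3 to 12.3). It was 9.75 in replicate 2 (9.26 to 10.3), and the ratios averaged 10.8 ± 1.43 (SD, n = 2). Mir425 made up 7.83% of the 27779 reads of the pair in replicate 1 and 9.30% of 16982 in replicate 2. The intervals did not overlap, and the ratio differed 1.21-fold between the libraries (log2 difference 0.27, counting SE 0.05; Fisher's exact test, two-sided, p = 6.16e-08). Together the 2 genes took 1.04% and 0.970% of the assigned reads. As the log2 ratios of the 2 genes had opposite signs, this sum had to move less than the balance within the pair.

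Other pairs of neighbouring hairpins gave a scale for that ratio. Hairpins on 1 strand with gaps of at most 1 kb were joined, and clusters of exactly 2 hairpins, both detected, were kept. This gave 28 pairs, of which Mir191 and Mir425 had the fifth highest summed level. The ratio of the higher to the lower mean ranged from 1.03 to 45.1, with a median of 4.51. It was 10.7 for Mir191 over Mir425, and 10 pairs had a larger one. With gaps of up to 10 kb allowed, 28 pairs also resulted, their median was 11.0, and 14 had a larger ratio, so the place of the pair depended on the gap. The hairpin nearer the 5′ end of the transcript was the higher in 15 of 28 pairs, Mir191 among them.

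The pairs with the highest summed levels covered nearly that whole range. Mir411 stood 45.1-fold above Mir299a in the imprinted chromosome 12 cluster. The activity-induced Mir132 stood 33.3-fold above Mir212, with 20.9 in replicate 1 and 44.5 in replicate 2. Mirlet7b stood 29.4-fold above Mirlet7c-2 and Mir99a 21.3-fold above Mirlet7c-1. Mir298 stood 4.32-fold above Mir296 by the means, but 1.19-fold in replicate 1 and 11.1-fold in replicate 2. Mir181d stood 1.83-fold above Mir181c and Mir98 1.49-fold above Mirlet7f-2. In 13 of 28 pairs a member shared 20 bases with another hairpin, so its reads could be undercounted. Mirlet7b, Mir99a, Mir411 and Mir98 were in such pairs, and the Mir191 pair was not.

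The balance within the pair differed less between the libraries than in most of the 28 pairs, which were not matched by level. The log2 ratios of Mir191 and Mir425 differed by 0.27, against a median of 0.40 over the 28 pairs and a largest difference of 3.22, in Mir298 and Mir296. It was smaller in 8 pairs. Among the pairs of highest summed level, the difference was 0.04 for Mir99a, 0.15 for Mir181d, 0.20 for Mir411 and 0.25 for Mirlet7b. It was 0.28 for Mir98, 1.09 for Mir132 and 3.22 for Mir298. Among these the Mir191 pair did not stand out. In 17 of 28 pairs both hairpins differed in the same direction between the libraries. Mir191 and Mir425 were among the 11 that did not. The higher hairpin was the same in both libraries in 26 of 28 pairs, this pair included.

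**Figure D4:**
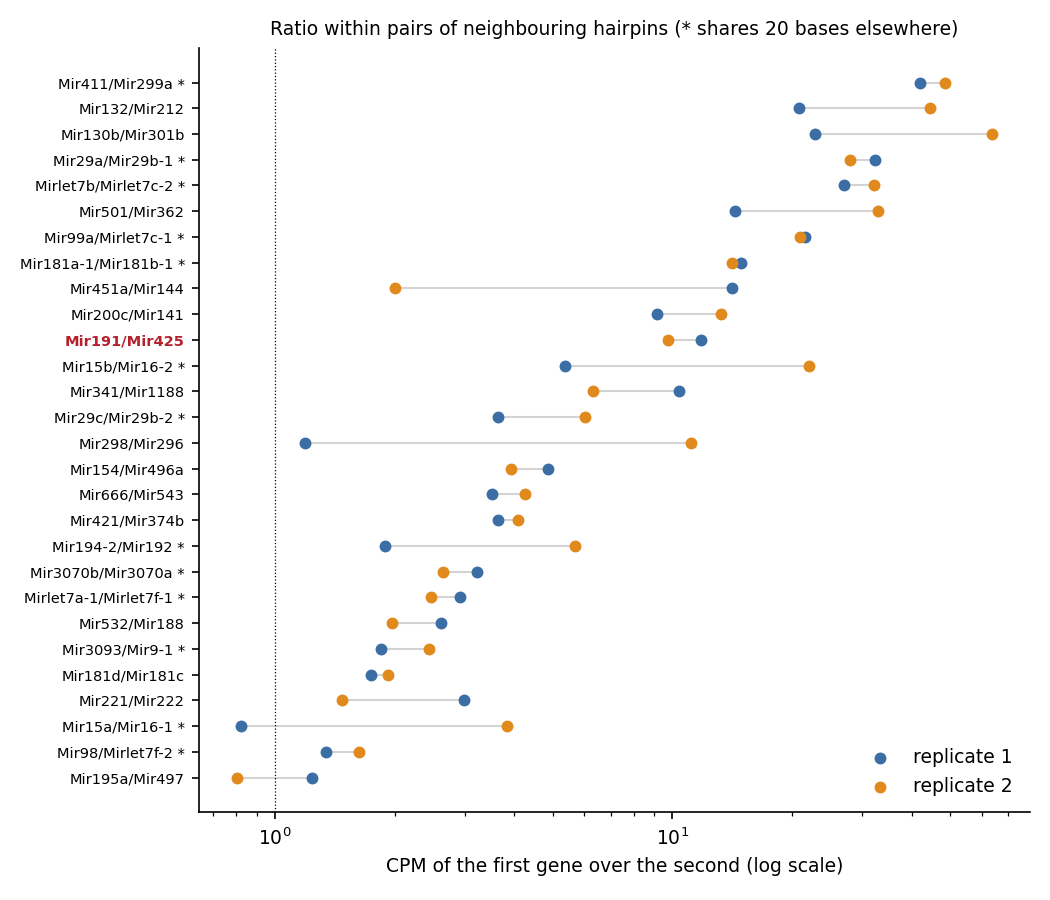
Ratio of CPM within each of the 28 pairs of neighbouring hairpins, on a log scale, with 1 point per library and a line joining them. An asterisk marks pairs in which a member shares 20 bases with a hairpin elsewhere. The points of Mir191 over Mir425 lie at 11.8 and 9.75.

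Since miR-191 and miR-425 serve as references, 19 genes of miRNAs often used in that way were set side by side. All 19 were detected and tested. Mir191 was the most abundant of them by counted reads and Mir425 the eighth. The 9 members that share sequence with another hairpin could rank too low, as reads that map to several places are not counted. By size of the log2 ratio, from the smallest, Mir191 was the seventh and Mir425 the ninth of 19. The median size over the list was 0.27, against 0.46 over all 542 tested genes and 0.35 over the 442 detected ones, as all 19 are. By the adjusted p and the log2 minimum, 6 of 19 were called, against 12.0% of all tested genes.

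The called genes of that list all shared sequence with another hairpin. Mir107 had 1242 and 4404 CPM (log2 ratio 1.83), Mir16-1 had 643 and 191 CPM (-1.75) and Mir26a-1 had 14.6 and 90.9 CPM (2.63). Mir16-2, Mir26a-2 and Mir103-1 were the other 3, with log2 ratios of -1.23, 2.00 and 1.31. Apart from Mir107, these were named after their values were seen. Of the 9 list members that share 20 bases 6 were called, and of the 10 that do not, Mir191 and Mir425 among them, 0 were. Over all tested genes the shares called were 13.1% of 99 that share 20 bases and 11.7% of 443 that do not. Without the minimum ratio, 5 of the 10 had an adjusted p under 0.05 by the same exact test, near the 42.3% of all tested genes.

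The other single-copy references lay on both sides of the pair in the size of their ratios. Mir151 had 7475 and 7359 CPM (log2 ratio -0.02), Mir484 had 2044 and 1996 CPM (-0.03) and Mir93 had 3710 and 3878 CPM (0.06). Their ratios were smaller in size than that of Mir191. Mir361 had 5363 and 4370 CPM (-0.30) and Mir423 had 1128 and 935 CPM (-0.27), and their ratios were larger in size than those of both Mir191 and Mir425. Over the 10 single-copy members the median size was 0.09, below the sizes of both Mir191 and Mir425.

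**Figure D5:**
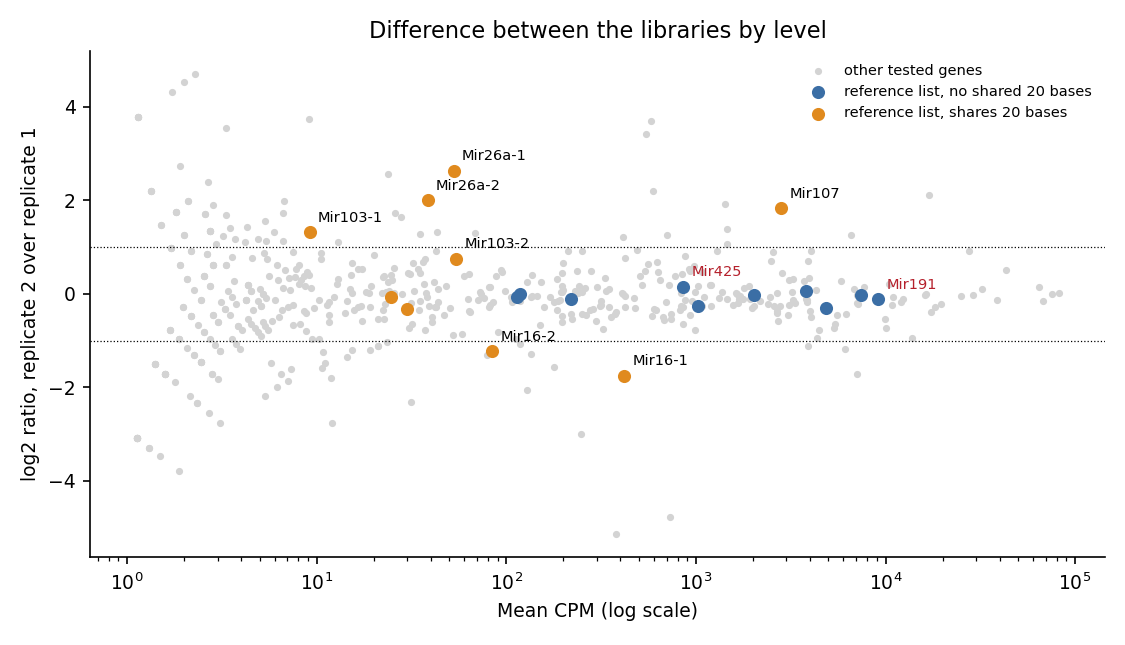
Log2 ratio of replicate 2 over replicate 1 against mean CPM (log scale) for the 542 tested genes, with the 19 reference genes in colour. Dotted lines mark log2 ratios of -1 and 1. Reference genes that share 20 bases with another hairpin reach from -1.75 to 2.63, and Mir191 and Mir425 lie at -0.12 and 0.15.

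Scaling on the reads of 1 gene shifts the log2 ratio of every other gene by the same amount, so it changes no gene relative to another. As the log2 ratios of Mir191 and Mir425 lay 0.27 apart, the split of calls had to move between these scales, and it is given as a description. With library totals, 65 of 542 genes were called, 31 higher and 34 lower in replicate 2. With the reads of Mir191 as the scale, 72 of 541 were called, of which 44 were higher and 28 lower (61.1% higher). With the reads of Mir425, 68 of 541 were called, of which 26 were higher and 42 lower (38.2% higher).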

How the data were processed

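The deposited values are raw counts of reads for 1 library per file. Per the text the authors deposited with the samples, they rest on mm10 and annotation M21, and the programs used are not given in the sources at hand. Of 3 count columns, told apart by their values, the one on the gene's strand was used, and totals leave out the 4 rows without a gene. Reads mapped to more than 1 place (38.2% and 28.3% of all reads) and CAST alleles were not analysed. M21 symbols matched all 2202 genes, and sequences came from RefSeq (GRCm38.p6). The 2 genes, the lists and the tests were chosen with earlier results of these data known. Genes at 2 CPM in either library were tested across all genes with Fisher's exact test and Benjamini-Hochberg adjustment (adjusted p under 0.05, log2 ratio with 0.5 reads added of 1 or more in size). This was checked on simulated counts that held counting error only, with no PCR copies and no spread between animals or preparations. Scaling alternatives used edgeR 4.0.16 (TMM) and DESeq2 1.42.0 size factors in R 4.3.3, and the rest Python 3.11.15, scipy 1.17.1, Biopython 1.88 and RNAfold 2.7.2. Named were the pair, genes sharing a seed, the 3 closest genes, up to 8 hairpin pairs and up to 8 reference genes of highest level, by a fixed rule. Neighbours in the order of levels and markers were named besides. With 1 library per animal, spread between animals and between preparations cannot be told apart. Intervals and exact tests cover only the counting error of reads taken as independent. PCR copies are not independent molecules, so the intervals could be too narrow.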

Additional observations from a re-analysis of the deposited data

How the results depend on the processing

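With the count that ignores strand, Mir191 had a mean of 0 CPM and a ratio to Mir425 of 0, because its reads overlap Gm24083, and its log2 ratio could not be computed. With reads mapped to more than 1 place in the total, Mir191 averaged 4081 CPM and Mir425 382 CPM. Leaving out 1 library gave 8801 to 9561 CPM for Mir191, 812 to 903 CPM for Mir425, 9.75 to 11.8 for their ratio and 4.25 to 5.85 for the median ratio of the hairpin pairs. Without a minimum log2 ratio 229 genes passed, Mir191 (log2 ratio -0.12) and Mir425 (0.15) among them. With TMM or DESeq2 scaling Mir191 had log2 ratios of -0.07 and -0.05 and Mir425 of 0.21 and 0.22, with the same signs and no call. Gaps of up to 10 kb gave a median pair ratio of 11.0. Leaving out pairs that share 20 bases, an alternative chosen after seeing the data, left 15 pairs, and leaving out such members of the reference list left 0 calls (from 6) among 10 genes tested. Differences between libraries could not be recomputed with 1 library left out, and 3 reads (1.12 and 1.71 CPM) limit what could be detected.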
